A study of Mus musculus with 10 samples.

Results

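Cadherins hold neighbouring cells together, and a change from epithelial (E-)cadherin to neural (N-)cadherin is a widely used sign of epithelial-mesenchymal transition (EMT), in which epithelial cells lose their junctions and take up a mesenchymal, motile form. The genes described here are 10 of the 49585 genes counted in each library, taken by symbol: the cadherins Cdh1 and Cdh2, the splicing regulator Esrp1, the mesenchymal products Vim and Fn1, and the transcription factors Snai1, Snai2, Twist1, Zeb1 and Zeb2. The factors of the Snail and Zeb families are zinc-finger repressors that bind E-box sequences, among them sites in the promoter of Cdh1, and Twist1 is a basic helix-loop-helix factor. Esrp1 keeps the epithelial splice forms of its target transcripts. In liver, bile duct cells carry E-cadherin and keratins of simple epithelia, hepatocytes carry both E- and N-cadherin, and vimentin belongs mainly to stellate, endothelial and immune cells.

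RNA of mouse liver material was sequenced in bulk, in a series whose title names early and macroscopic liver cancer lesions of a triple knockout of the Rb gene family. Per the labels, floxed alleles were recombined by Cre and YFP marks the recombined cells, which were taken from digested livers or lesions by flow cytometry. The groups with libraries here are Sox9-derived organoids (2 libraries), a second pair of libraries whose names carry Sox9 and the tag TKO, and Ck19-derived organoids (2 libraries). Sox9 and Ck19 (the protein of Krt19) are both markers of bile duct epithelium; the labels give no genotype, age, Cre driver, passage or number of animals for any organoid, and both are described as primary liver cells with no treatment. The labelled Epcam-negative, Epcam-high and Thy1-positive samples were not analysed here, because no column carries their names.

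The Sox9-derived libraries held 36606008 and 33154972 assigned fragments, the TKO-tagged Sox9 libraries 53280136 and 59664959, and the Ck19-derived libraries 31883180 and 32747944. A count of 0 allows up to 3 fragments, which is 0.0820 and 0.0905 CPM (counts scaled by the library total) in the Sox9-derived, 0.0563 and 0.0503 in the TKO-tagged and 0.0941 and 0.0916 in the Ck19-derived libraries. The labels list 2 Sox9-derived samples while both column pairs carry that name, so the names do not settle which pair is meant, and the pair named Sox9 alone is used below as the Sox9-derived organoids. The TKO-tagged pair goes against the label of a duct organoid: Krt19 was at 0.619 and 1.61 CPM and Epcam, an epithelial adhesion molecule, at 8.99 and 5.61, against 2453 and 1945 and 2324 and 2101 CPM in the Ck19-derived libraries, while the hepatocyte product Alb was at 21740 and 13158, against 20.4 and 9.10. Krt19 was at 3120 and 2987 CPM in the Sox9-derived libraries, and the transcript of Sox9 itself at 567 and 562 CPM there, 63.8 and 106 in the TKO-tagged and 97.0 and 78.4 in the Ck19-derived libraries. The second pair is therefore called the TKO-tagged Sox9 libraries and kept apart. Its libraries stand in another deposited table, so its difference from the organoids and the table cannot be told apart. The sex-linked transcript Xist had 1 fragment in each Sox9-derived library, 2 and 1 in the TKO-tagged and 1923 and 1869 in the Ck19-derived libraries, so origin, animal and sex of the material cannot be told apart in either comparison.

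**Figure D1:**
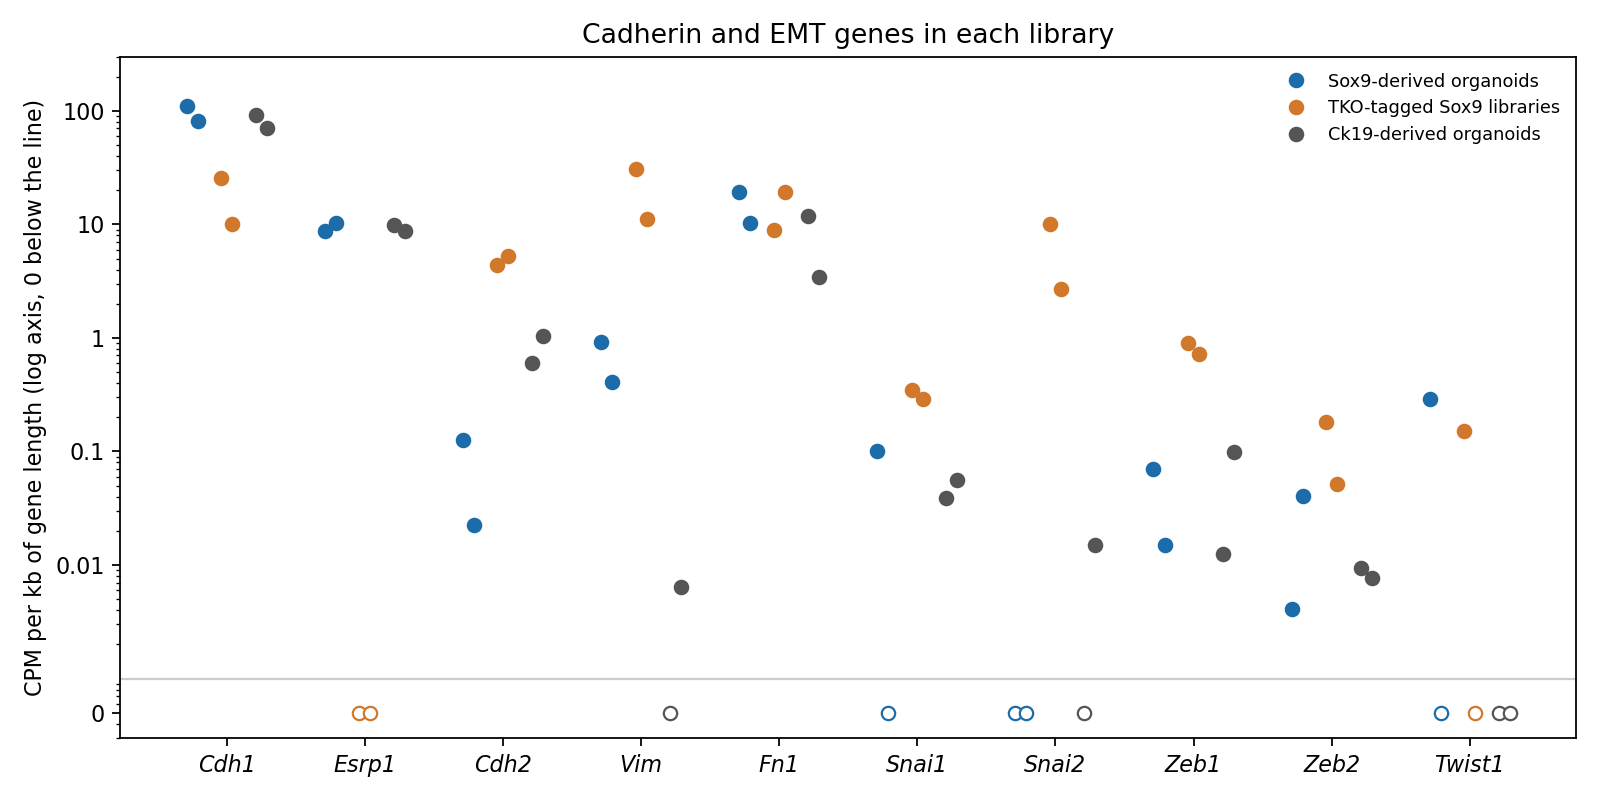
Level of the 10 genes as CPM per kb of gene length (log axis) in each of the 6 libraries, 1 point a library, with Sox9-derived organoids in blue, TKO-tagged Sox9 libraries in orange and Ck19-derived organoids in grey; open points under the line are libraries with no fragment. Cdh1 leads in all 4 organoid libraries, and both TKO-tagged points of Esrp1 are at 0. The TKO-tagged points of Cdh2, Vim, Snai1, Snai2, Zeb1 and Zeb2 lie above all organoid points of the same gene.

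The 2 organoid groups shared an epithelial pattern of these genes. Cdh1, Esrp1 and Fn1 had values that overlapped between Sox9-derived and Ck19-derived organoids, while Cdh2 was lower and Vim higher in both Sox9-derived libraries than in either Ck19-derived one. None of the 6 genes of the set that passed the count filter was called in edgeR's quasi-likelihood test (adjusted p under 0.05), with 95 of all 16653 genes called (0.57% in either direction, 0.186% higher and 0.384% lower in Sox9-derived organoids) and 2792 at an unadjusted p under 0.05. The groups did not overlap in CPM for 2 of the 6, against 51% of all genes tested. Zeb2, Snai1, Snai2 and Twist1 fell below the filter, Vim passed it through the Sox9-derived libraries alone, and Cdh2 passed it through the Ck19-derived libraries alone. The called count depends on the tool and on single libraries. DESeq2 called 2 of the 6 and 1512 genes in all, and edgeR called none of either without Ck19-derived replicate 1 or 2, 1394 genes without Sox9-derived replicate 1 (2 of the set) and 975 without Sox9-derived replicate 2 (1 of the set).

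The TKO-tagged Sox9 libraries differed from the Ck19-derived organoids in most of the set. Cdh2, Vim, Snai1, Snai2, Zeb1 and Zeb2 were higher and Esrp1 was lower, 7 of the 9 tested, where 28.9% of 17938 genes were called (15% higher and 14% lower). Of these 9 genes, 5 passed the filter through the TKO-tagged libraries alone and Esrp1 through the Ck19-derived libraries alone, so that count is a description and was not read as support. The groups did not overlap for 8 of the 9, against 77.9% of all genes tested. Without Ck19-derived replicate 1 or 2 the called count was 2 or 3 of the set, and 918 or 881 genes in all. Both comparisons use the same 2 Ck19-derived libraries. The scale normalization matters here: with library totals alone the median log2 fold change of all genes was -0.82, against -0.07 with trimmed mean of M-values (TMM) scaling, a shift of -0.76, and 1960 genes were called higher and 5158 lower, against 2683 higher and 2507 lower with TMM. In bulk RNA, fewer cells of a type and less RNA per cell cannot be told apart, and this holds for each value below.

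Markers of other liver cells moved with that second comparison. The summed level of 6 hepatocyte markers was 49879 and 34083 CPM in the TKO-tagged libraries, against 123 and 158 CPM in the Ck19-derived libraries, and all 6 were called higher. The 8 stellate cell and fibroblast markers summed to 210.2 and 119 CPM, against 32.7 and 15.9, with 4 of 7 tested called higher and Pdgfra at 0 in the TKO-tagged libraries. Dcn made up most of the TKO-tagged sum, at 163 and 105 CPM, against none. Reln made up most of the Ck19-derived sum, at 31.1 and 15.6 CPM. It was lower in the TKO-tagged libraries, at 4.45 and 1.56 CPM, and not called. The 7 endothelial markers summed to 96.2 and 59.9 CPM, against 2.60 and 2.87, with 6 of 7 called higher and none at 0. The 7 myeloid markers summed to 1244 and 934 CPM, against 1072 and 1104, with 5 of 7 called higher; the lysozyme gene Lyz2 had 535 and 554 CPM, against 0.157 and 0.183, while Cd14, which makes up most of the sum in the Ck19-derived libraries, was at 492 and 256 CPM, against 987 and 1057. The 6 biliary markers summed to 506 and 1157 CPM, against 14074 and 13673, with 4 of 6 called lower. Over all genes 28.9% were called, and 6 of the 7 stellate and fibroblast, 5 of the 7 endothelial, 3 of the 7 myeloid and 4 of the 6 hepatocyte markers tested passed the filter through the TKO-tagged libraries alone. Without either 1 of the Ck19-derived replicates the calls were 5 hepatocyte, 1 stellate, 3 endothelial and 3 myeloid markers higher and 2 biliary markers lower. Between the organoid groups, 2 of the 6 biliary markers were called higher in Sox9-derived organoids, where 0.186% of all genes were called higher. They were Sox9 (edgeR adjusted p = 0.0386) and the secreted phosphoprotein gene Spp1 (edgeR adjusted p = 0.0467), and both calls were lost without Ck19-derived replicate 1 or 2. The part of these cells in the values of the 10 genes was not tested.

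**Figure D2:**
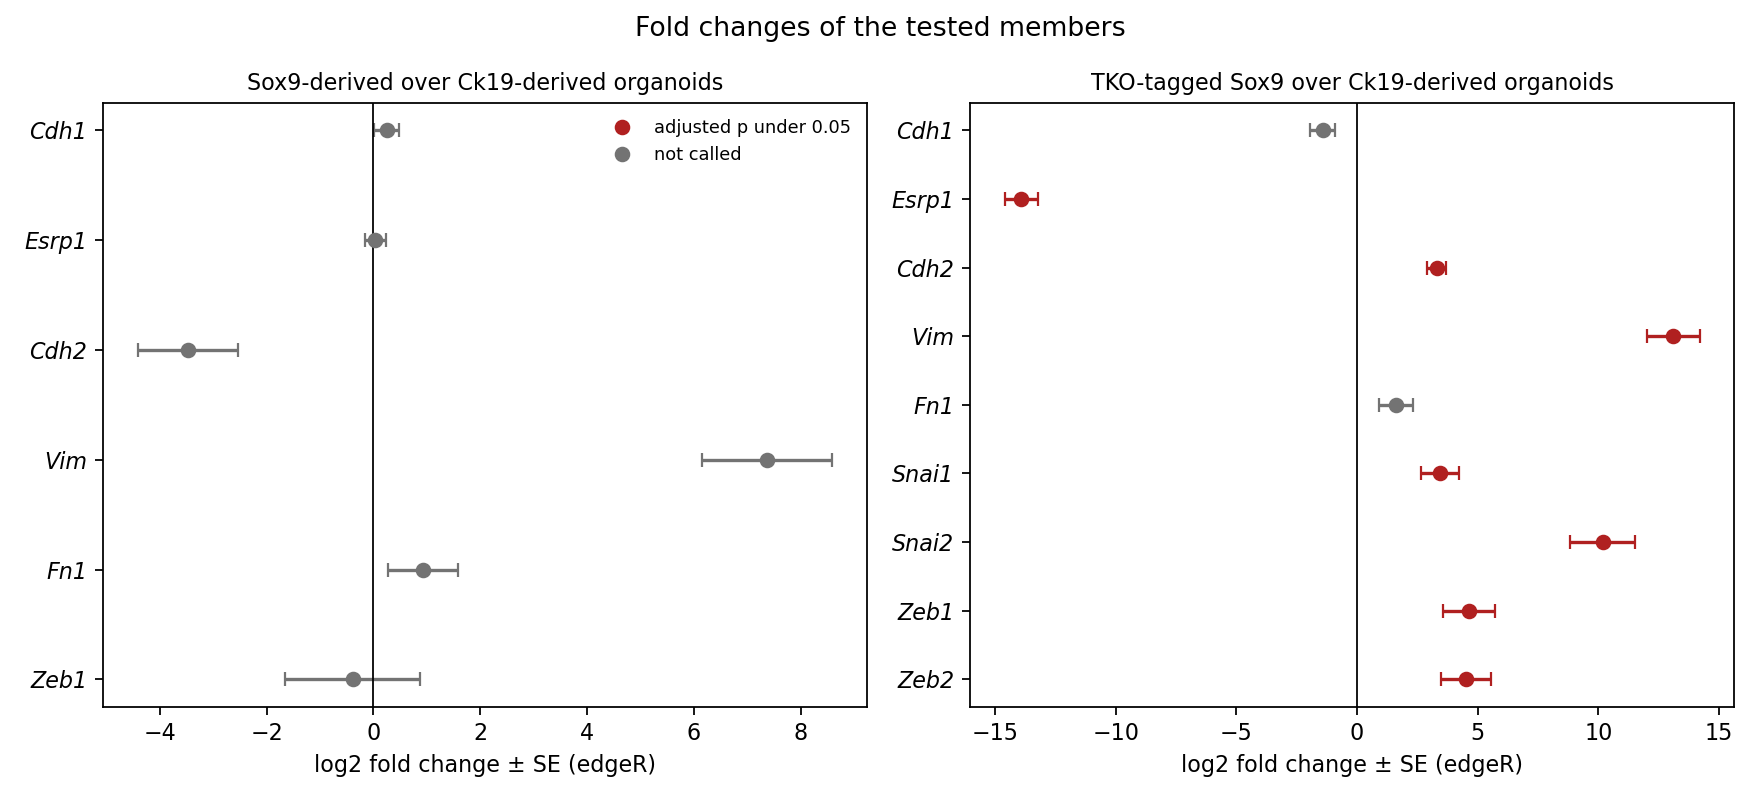
Log2 fold change ± SE from edgeR of the genes of the set that passed the count filter, for Sox9-derived over Ck19-derived organoids (left) and TKO-tagged Sox9 libraries over Ck19-derived organoids (right, on a wider axis); red points have an adjusted p under 0.05. No point is red on the left; on the right 6 red points lie above 0, and Esrp1, at 0 fragments in the TKO-tagged libraries, lies below 0 at a fitted value that depends on the prior count.

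Cdh1 encodes E-cadherin, the adhesion molecule of epithelial adherens junctions, and lies on chromosome 8 at 106603351 to 106670246 (GRCm38, plus strand; ENSMUSG00000000303). It had 507 and 371 CPM in Sox9-derived organoids, against 416 and 322 CPM in Ck19-derived organoids. The groups overlapped, with means of 439 ± 95.8 and 369 ± 66.7 CPM (SD, n = 2 each). The log2 fold change of Cdh1 was 0.25 (SE 0.24, edgeR adjusted p = 0.658). Cdh1 of the TKO-tagged libraries stood at 117 and 45.6 CPM, below all 4 organoid libraries. Against the Ck19-derived organoids that was a log2 fold change of -1.42 (SE 0.52, edgeR adjusted p = 0.106), which missed the threshold. Cdh1 was called lower with library totals alone (edgeR adjusted p = 0.0244), in DESeq2 (adjusted p = 0.0419) and without TKO-tagged replicate 1 (edgeR adjusted p = 0.00137).

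Esrp1, on chromosome 4 at 11331933 to 11386783 (minus strand; ENSMUSG00000040728), was the other epithelial gene of the set. It had 55.2 and 65.3 CPM in Sox9-derived organoids, against 62.7 and 54.8 CPM in Ck19-derived organoids. The values interleaved, and the log2 fold change was 0.04 (SE 0.20, edgeR adjusted p = 0.950). No fragment of Esrp1 was counted in either TKO-tagged library, against 1998 and 1795 fragments in the Ck19-derived libraries. Set against 3 fragments over the TKO-tagged pair, its level was at least 2209-fold lower there (edgeR adjusted p = 0.00192). Its paralogue Esrp2 was still counted in these libraries, at 28.8 and 18.2 CPM, against 67.2 and 62.0 CPM in the Ck19-derived libraries, with a log2 fold change of -0.69 that was not called (SE 0.33, edgeR adjusted p = 0.186).

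Cdh2 encodes N-cadherin and lies on chromosome 18 at 16588877 to 16809246 (minus strand; ENSMUSG00000024304). Sox9-derived organoids had 37 and 6 fragments of it, or 1.01 and 0.181 CPM, against 156 and 276 fragments, or 4.89 and 8.43 CPM, in Ck19-derived organoids. Both Sox9-derived libraries lay below both Ck19-derived ones. The fitted log2 fold change was -3.47 (SE 0.94, edgeR adjusted p = 0.181), which was not called, and the ratio of group totals was 0.0922 (95% exact interval 0.0658 to 0.126, for counting error only). Cdh2 passed in DESeq2 (adjusted p = 0.00614) and in edgeR without Sox9-derived replicate 1 (adjusted p = 0.00411). The TKO-tagged libraries held 1873 and 2513 fragments, or 35.2 and 42.1 CPM, above every organoid library. That was a log2 fold change of 3.30 over the Ck19-derived organoids (SE 0.38, edgeR adjusted p = 0.00606). The Cdh2 call was lost without Ck19-derived replicate 1 (edgeR adjusted p = 0.0619).

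The balance of both cadherins was read within each library, where library size cancels. Per kb of gene length, Cdh1 exceeded Cdh2 by a ratio of 884 and 3619 in Sox9-derived organoids, against 150.0 and 67.4 in Ck19-derived organoids. The Sox9-derived ratios rest on 37 and 6 fragments of Cdh2, so their size is imprecise, most of all for the ratio of 3619. Both TKO-tagged libraries had lower ratios, of 5.85 and 1.91. E-cadherin transcript was therefore the more abundant of the pair in every library, and the ratios of the 3 groups did not overlap.

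**Figure D3:**
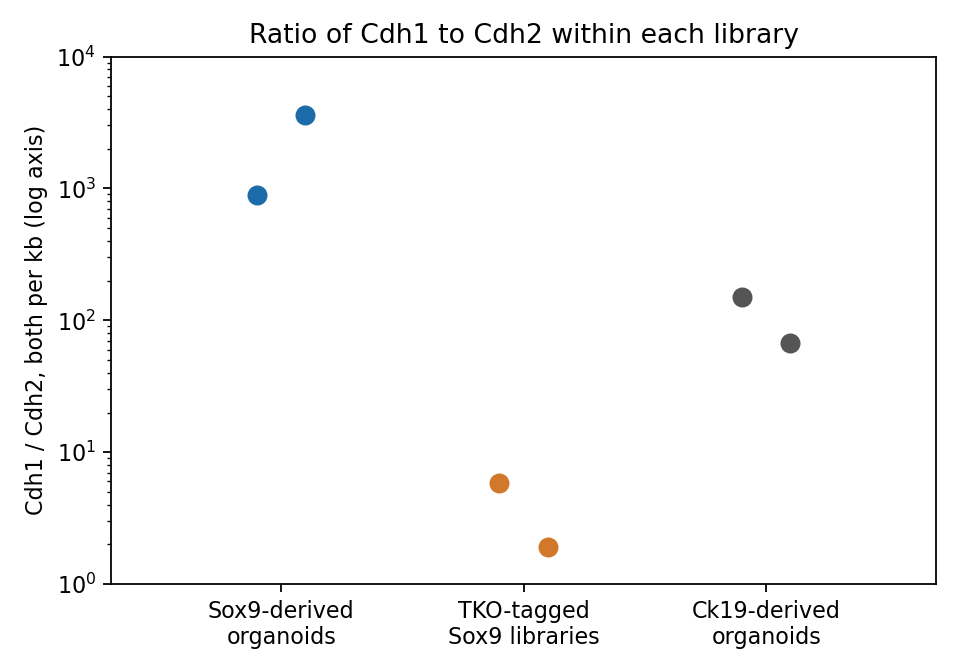
Ratio of Cdh1 to Cdh2, each as CPM per kb of gene length, in each of the 6 libraries (log axis that starts at 1, equal levels). All points lie above 1, with the Sox9-derived libraries highest, at 884 and 3619, and the TKO-tagged Sox9 libraries lowest, at 5.85 and 1.91. The Sox9-derived points rest on 37 and 6 fragments of Cdh2.

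Among the 26 other cadherins, 10 passed the filter between the organoid groups, with a median log2 fold change of -1.43, against 0.01 over all genes tested. Of these 10 genes, 4 lay above 0 and 6 below. The filter was passed by 2 of them through the Ck19-derived libraries alone, so the median is a description and was not read as support. One was called: Cdhr5, a protocadherin-like protein of brush-border microvilli, had 2.68 and 1.81 CPM in Sox9-derived organoids, against 30.5 and 35.3 CPM in Ck19-derived organoids. Its log2 fold change was -3.87 (SE 0.34, edgeR adjusted p = 0.0389). The Cdhr5 call was lost without Ck19-derived replicate 1 or 2 (edgeR adjusted p = 0.448 and 0.401). Cdh17, the liver-intestine cadherin, had 79.9 and 63.0 CPM in Sox9-derived organoids, against 323 and 204 CPM, and was not called (log2 fold change -1.89, SE 0.30, edgeR adjusted p = 0.0852). Cdh17 passed in DESeq2 (adjusted p = 1.66e-07), in edgeR with no count filter (adjusted p = 0.0128) and without Sox9-derived replicate 1 (adjusted p = 0.00489) or 2 (adjusted p = 0.0144). Cdh13, a cadherin anchored to the membrane by a lipid, had 269 and 368 CPM, against 223 and 167 CPM (log2 fold change 0.71, edgeR adjusted p = 0.270).

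Between the TKO-tagged libraries and the Ck19-derived organoids, 11 of these cadherins were tested. Among them 2 were called higher and 2 lower, where 28.9% of all genes were called. Across the 11, log2 fold changes had a median of -2.15, against -0.07 over all genes tested. Cdh5, the cadherin of vascular endothelium, was at 17.1 and 8.70 CPM, against 0 and 0.0916 CPM, and is itself 1 of the endothelial markers above. Cdhr5 was at 88.2 and 157 CPM, against 30.5 and 35.3 (log2 fold change 2.65, SE 0.35, edgeR adjusted p = 0.00824). Cdh17 was at 0.0563 and 0.0168 CPM, against 323 and 204 CPM (SE 0.65 around a log2 fold change of -12.01, edgeR adjusted p = 0.00112). Cdh22 had no fragment in the TKO-tagged libraries, against 20 and 9 fragments, or 0.627 and 0.275 CPM. The Cdh22 call rests on few fragments and was lost in each fit with 1 library left out that tested it. The balance of these cadherins depends on the scaling and tool: 2 higher and 5 lower with library totals alone, 3 and 5 in DESeq2 and 2 and 4 in limma-voom. Without Ck19-derived replicate 1 none was higher and 1 lower, and without Ck19-derived replicate 2 the counts were 1 and 1. Of the 11, 2 passed the filter through the TKO-tagged and 5 through the Ck19-derived libraries alone.

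**Figure D4:**
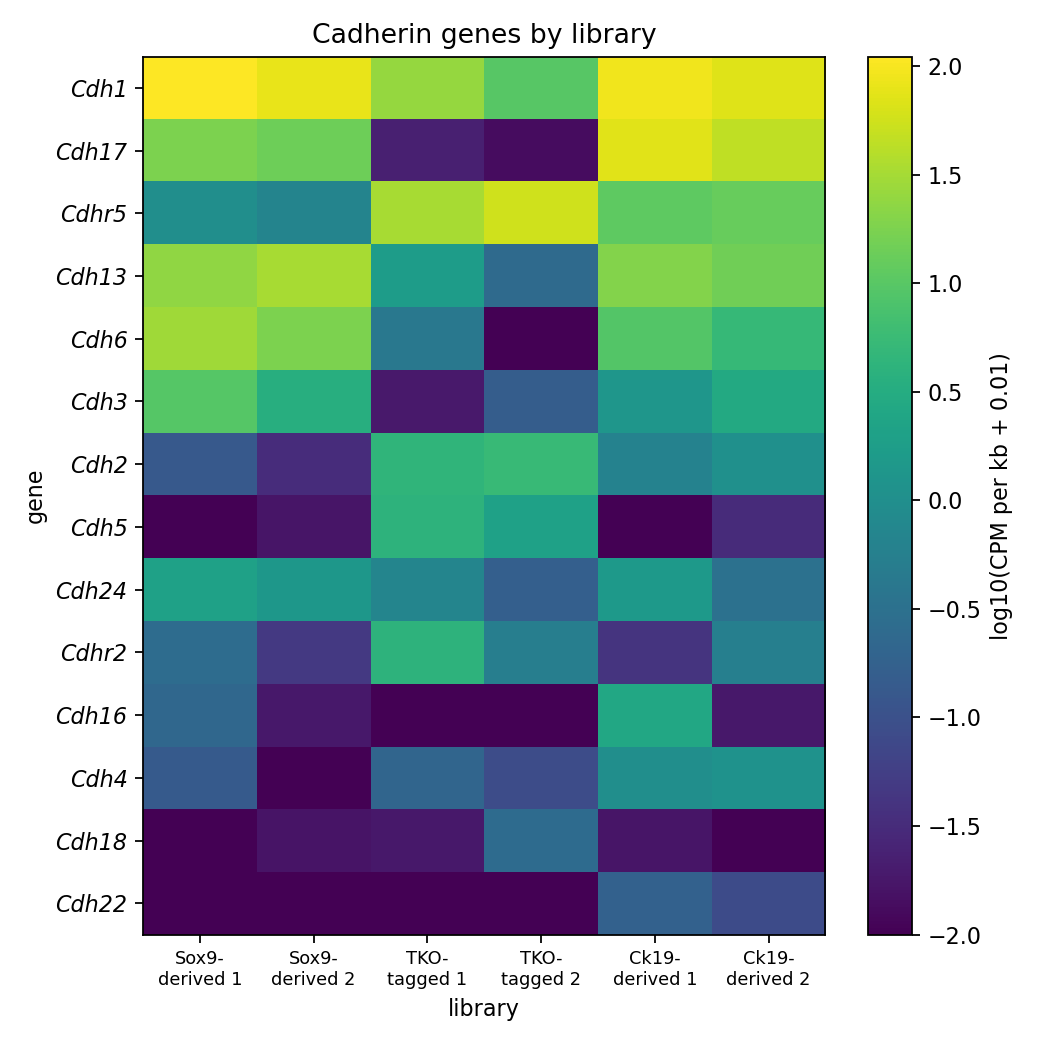
Heat map of the 14 cadherin genes, of 28 considered, that reached 0.1 CPM per kb of gene length in any library; colour is log10(CPM per kb + 0.01), with 1 column a library. Cdhr5 is darker in the Sox9-derived libraries (0.977 and 0.661 CPM per kb) than in the Ck19-derived ones (11.1 and 12.9), and Cdh17 is near the bottom of the scale in the TKO-tagged libraries.

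Vim encodes vimentin, the intermediate filament protein of mesenchymal cells, and lies on chromosome 2 at 13573927 to 13582826 (plus strand; ENSMUSG00000026728). Sox9-derived organoids had 160 and 64 fragments, or 4.37 and 1.93 CPM, against 0 and 1 fragment, or 0 and 0.0305 CPM, in Ck19-derived organoids. Both Sox9-derived libraries thus lay above the limit of 3 fragments and neither Ck19-derived library did. The ratio of group totals was 208 (95% exact interval 36.9 to 8233). The fitted log2 fold change of 7.37 was not called (SE 1.22, edgeR adjusted p = 0.0952). Vim passed in DESeq2 (adjusted p = 0.000642), in edgeR with no count filter (adjusted p = 0.0235) and in edgeR without Sox9-derived replicate 1 (adjusted p = 0.0206) or 2 (adjusted p = 0.00345). Beside it, 6 of the 8 stellate cell and fibroblast markers had no fragment in the Sox9-derived libraries (Dcn, Lum, Pdgfra, Pdgfrb, Des and Lrat). The list summed to 6.97 and 5.58 CPM, against 32.7 and 15.9 CPM, nearly all of it Reln (6.97 and 5.55 CPM, against 31.1 and 15.6 CPM). The endothelial markers summed to 0.382 and 1.57 CPM, against 2.60 and 2.87 CPM. The myeloid markers summed to 1354 and 1153 CPM, against 1072 and 1104 CPM, mostly Cd14. The smooth muscle genes Acta2 (0.683 and 2.20 CPM, against 0.220 and 0.122) and Cnn1 (34.6 and 8.02, against 0.0314 and 0.0916) were higher, though edgeR called neither. Of the 10 mesenchymal and matrix genes tested, 7 had a log2 fold change above 0 and 3 below. The part of other cells in the Vim values was not tested.

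The TKO-tagged libraries had 7804 and 3145 fragments of Vim, or 146 and 52.7 CPM. Over the Ck19-derived organoids the ratio of totals was 6265 (95% exact interval 1124 to 247492), and the log2 fold change was 13.11 (SE 1.09, edgeR adjusted p = 0.00255). It was called under each of the 10 alternatives run for this comparison, with adjusted p up to 0.0344.

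The promoters of Vim and Snai1 are given to show the sequence around a RefSeq start of these genes. Promoter sequences of 4 genes of the set were printed or searched, Vim, Zeb2, Snai1 and Twist1. Those of the other genes of the set were left out, so the search does not cover the whole set. Each window is the RefSeq sequence on GRCm38.p6 from 250 bases before to 50 bases after the annotated start. Those of Vim, Snai1 and Twist1 lie on the plus strand and those of Zeb2 on the minus strand. The Vim window lies within the counted Ensembl span, which begins at 13573927, so the RefSeq and Ensembl starts of Vim differ. Capitals mark the E-box letters CACCTG or their reverse complement CAGGTG, the core that Snail and Zeb factors recognise. Vim, chr2:13574061-13574360, held neither form:
Vim: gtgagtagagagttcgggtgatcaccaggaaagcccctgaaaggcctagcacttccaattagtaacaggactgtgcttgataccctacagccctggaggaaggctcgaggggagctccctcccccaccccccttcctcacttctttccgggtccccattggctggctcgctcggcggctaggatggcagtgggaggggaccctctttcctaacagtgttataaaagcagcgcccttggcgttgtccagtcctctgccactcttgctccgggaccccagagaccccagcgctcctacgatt
Snai1, chr2:167537945-167538244, held CACCTG once, beginning at base 125 of the window:
Snai1: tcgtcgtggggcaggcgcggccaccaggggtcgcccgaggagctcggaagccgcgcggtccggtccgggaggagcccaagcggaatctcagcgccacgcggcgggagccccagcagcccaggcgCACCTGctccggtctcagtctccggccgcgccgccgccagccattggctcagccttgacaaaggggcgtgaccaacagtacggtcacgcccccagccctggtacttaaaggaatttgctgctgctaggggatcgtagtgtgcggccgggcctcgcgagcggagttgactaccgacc
Neither form was in the windows of Zeb2 (4 annotated starts) or Twist1. Of all 32851 promoter windows of that length, 6640 (20.2%) held either form, so 1 match among these 4 genes is a description of the letters and says nothing of binding.

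Fn1 encodes fibronectin, a matrix glycoprotein that hepatocytes also secrete into plasma, and lies on chromosome 1 at 71585520 to 71653200 (minus strand; ENSMUSG00000026193). Sox9-derived organoids had 225 and 120 CPM, against 140 and 40.5 CPM in Ck19-derived organoids. The groups overlapped and the replicates of each group differed widely, so the log2 fold change of 0.93 did not exceed its error by enough to be called (SE 0.65, edgeR adjusted p = 0.540). Fn1 stood at 104 and 227 CPM in the TKO-tagged libraries, just below and just above the 2 Sox9-derived libraries. The log2 fold change over Ck19-derived organoids was 1.61 (SE 0.70, edgeR adjusted p = 0.155). It was called in DESeq2 (adjusted p = 0.0448) and without TKO-tagged replicate 1 (edgeR adjusted p = 0.0275).

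Snai1, on chromosome 2 at 167538195 to 167542814 (plus strand; ENSMUSG00000042821), encodes Snail, whose promoter is printed above. It had 6 and 0 fragments in Sox9-derived organoids, against 2 and 3 fragments in Ck19-derived organoids, at or near the limit of detection in both. The ratio of totals was 1.11 (95% exact interval 0.283 to 4.61), so no difference was detectable at this depth. The TKO-tagged libraries had 30 and 28 fragments, or 0.563 and 0.469 CPM. That was a log2 fold change of 3.44 over the Ck19-derived organoids (SE 0.77, edgeR adjusted p = 0.0295) and a ratio of totals of 6.64 (95% exact interval 2.69 to 21.2). The call rests on few fragments and was lost in DESeq2 (adjusted p = 0.0643) and without any 1 of the 4 libraries, where edgeR adjusted p lay between 0.0742 and 0.401.

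Snai2 encodes Slug, and lies on chromosome 16 at 14705852 to 14709395 (plus strand; ENSMUSG00000022676). Neither Sox9-derived library had a fragment of it and the Ck19-derived libraries had 0 and 1, so Snai2 was under the limit of detection in all organoids. The TKO-tagged libraries had 1093 and 324 fragments, or 20.5 and 5.43 CPM. The ratio of totals over the Ck19-derived organoids was 811 (95% exact interval 145 to 32050), and the log2 fold change was 10.18 (SE 1.35, edgeR adjusted p = 0.00857). The call was lost without Ck19-derived replicate 1 or 2 (edgeR adjusted p = 0.0760 and 0.0701).

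Twist1, on chromosome 12 at 33957671 to 33959817 (plus strand; ENSMUSG00000035799), was found in single libraries. Sox9-derived organoids had 17 and 0 fragments, the TKO-tagged libraries 13 and 0, and the Ck19-derived organoids 0 and 0. Over the group the level was at least 5.25-fold higher in Sox9-derived than in Ck19-derived organoids, but the whole of it came from replicate 1, so the replicates did not bear a difference between groups. For the TKO-tagged libraries the bound was at least 2.48-fold higher, also from replicate 1 alone.

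Zeb1 lies on chromosome 18 at 5591860 to 5775467 (plus strand; ENSMUSG00000024238) and Zeb2 on chromosome 2 at 44983632 to 45117395 (minus strand; ENSMUSG00000026872). Zeb1 had 26 and 5 fragments in Sox9-derived organoids, against 4 and 33 fragments in Ck19-derived organoids. The groups overlapped, and the log2 fold change of -0.39 was smaller than its error (SE 1.26, edgeR adjusted p = 0.912). The TKO-tagged libraries had 486 and 435 fragments of Zeb1, or 9.12 and 7.29 CPM, above all organoid libraries. The log2 fold change was 4.62 (SE 1.08, edgeR adjusted p = 0.0328), and the Zeb1 call was lost without Ck19-derived replicate 1 or 2 (edgeR adjusted p = 0.109 and 0.0586).

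Zeb2 had 3 and 27 fragments in Sox9-derived organoids, against 6 and 5 fragments in Ck19-derived organoids. The ratio of totals of Zeb2 was 2.53 (95% exact interval 1.23 to 5.59), but 1 Sox9-derived library lay below both Ck19-derived ones. The TKO-tagged libraries had 194 and 62 fragments, or 3.64 and 1.04 CPM. The log2 fold change was 4.52 (SE 1.03, edgeR adjusted p = 0.0306). The Zeb2 call was lost without Ck19-derived replicate 1 or 2 (edgeR adjusted p = 0.227 and 0.245) and without TKO-tagged replicate 1 (edgeR adjusted p = 0.0503). Without strand, fragments over the 2.37% of the exon bases of Zeb2 that are shared with other genes, its antisense gene Zeb2os among them, could not be assigned to either.

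Ranked by CPM per kb of gene length, Cdh1 led both organoid groups, at a mean of 96.0 in Sox9-derived and 80.7 in Ck19-derived organoids. Fn1 and Esrp1 came next, with overlapping values, at 14.8 and 9.55 CPM per kb in Sox9-derived and 7.71 and 9.32 in Ck19-derived organoids. All other genes of the set were under 1 CPM per kb in both. In the TKO-tagged libraries Vim (21.0 CPM per kb), Cdh1 (17.7), Fn1 (14.2), Snai2 (6.39) and Cdh2 (4.79) followed each other, each overlapping its neighbour over the replicates. Zeb1 (0.812), Snai1 (0.318) and Zeb2 (0.117) came below them.

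The partners of the cadherins at the junction were compared next. Catenins link classical cadherins to actin, and 0 of 5 tested were called by edgeR or DESeq2 between Sox9-derived and Ck19-derived organoids. Beta-catenin (Ctnnb1) had 657 and 643 CPM in Sox9-derived organoids, against 563 and 541 CPM, and alpha-catenin (Ctnna1) had 552 and 534 CPM, against 470 and 362 CPM. Among 6 tested in the TKO-tagged libraries, 3 were lower than in Ck19-derived organoids and none higher, where 28.9% of all genes were called. Ctnnb1 was at 76.3 and 111 CPM (SE 0.28 around a log2 fold change of -1.81, edgeR adjusted p = 0.0124). Ctnna1 was at 88.8 and 80.5 CPM, and Arvcf, a p120-type catenin, at 5.89 and 5.40 CPM. None of the 6 was called without Ck19-derived replicate 1 or 2.

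Of 15 genes of the desmosome, the keratin-anchored junction, 8 were tested and edgeR called none between the organoid groups, while DESeq2 called 2 lower. Perp, a desmosomal membrane protein, had 536 and 398 CPM in Sox9-derived organoids, against 1154 and 1234 CPM (SE 0.20 around a log2 fold change of -1.35, edgeR adjusted p = 0.0777); it passed in DESeq2 (adjusted p = 1.66e-07), in edgeR with no count filter (adjusted p = 0.0163) and without Sox9-derived replicate 1 (adjusted p = 0.00385) or 2 (adjusted p = 0.0211). Plakoglobin (Jup) had 265 and 306 CPM, against 271 and 189 CPM. Of 8 tested in the TKO-tagged libraries, 4 were lower than in Ck19-derived organoids and 1 was higher, where 28.9% of all genes were called. Pkp1 had no fragment, against 23.6 and 13.7 CPM. Pkp3 was at 4.69 and 0.922 CPM, against 120 and 95.4, Jup at 29.6 and 21.8, against 271 and 189, and Perp at 135 and 165, against 1154 and 1234. The desmocollin Dsc2 was higher, at 48.1 and 19.9 CPM, against 13.5 and 9.04, and not called with library totals alone. The counts of desmosomal genes were 0 higher and 0 lower without Ck19-derived replicate 1, and 0 and 1 without replicate 2.

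Transcription factors and splicing regulators that oppose EMT numbered 12, of which 11 were tested between the organoid groups and 1 was called. Grhl3, a grainyhead factor of surface epithelia, had 1.72 and 0.935 CPM in Sox9-derived organoids, against 25.3 and 27.1 CPM in Ck19-derived organoids. Its log2 fold change was -4.30 (SE 0.43, edgeR adjusted p = 0.0443), a call lost without Ck19-derived replicate 1 or 2 (edgeR adjusted p = 0.467 and 0.446). The epithelial Ets factors Ehf (505 and 697 CPM, against 318 and 379) and Elf3 (221 and 426 CPM, against 670 and 388) were not called in edgeR. Ehf passed in DESeq2 (adjusted p = 0.0257) and in edgeR without Sox9-derived replicate 1 (adjusted p = 0.0293). Against Ck19-derived organoids, 8 of 11 were lower in the TKO-tagged libraries and none higher, where 14% of all genes were called lower. The median log2 fold change was -8.46, and fitted values of genes with no fragment depend on the prior count. Of the 11, 6 passed the filter through the Ck19-derived libraries alone, so count and median are a description and were not read as support. Grhl3, Ovol1 and Ovol2 had no fragment in the TKO-tagged libraries. Grhl2 had 0 and 0.0168 CPM, against 29.1 and 39.3 CPM in Ck19-derived organoids. The lower count was 3 without Ck19-derived replicate 1 and 4 without replicate 2.

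Among 12 other EMT transcription factors, 8 were tested between the organoid groups and edgeR called none, while DESeq2 called 2 higher and 1 lower. Sox4 had 302 and 280.0 CPM in Sox9-derived organoids, against 158 and 125 CPM (SE 0.20 around a log2 fold change of 1.04, edgeR adjusted p = 0.111), and Tcf3, which encodes the E2A proteins, had 175 and 153 CPM, against 102 and 97.7 CPM. Both passed in DESeq2 (adjusted p = 0.000236 for Sox4 and 0.00968 for Tcf3), and Sox4 in edgeR without Sox9-derived replicate 1 (adjusted p = 0.0458) or 2 (adjusted p = 0.0417). Of the exon bases of Sox4, 54.6% are shared with another annotated gene, Gm26735. Of 9 tested in the TKO-tagged libraries, 2 were higher and 3 lower than in Ck19-derived organoids, where 28.9% of all genes were called. With library totals alone the counts were 1 higher and 5 lower, and in DESeq2 2 and 5. Prrx1, a homeobox factor of mesenchyme, had 0.732 and 1.91 CPM, against 0.0314 and 0.0916, and Tcf4, which encodes E2-2, had 36.2 and 19.4, against 11.8 and 13.4. Sox4 was at 5.56 and 5.56 CPM, against 158 and 125, Foxc1 at 0.188 and 0.486, against 4.58 and 4.70, and Snai3 had no fragment, against 4.55 and 9.71. Without Ck19-derived replicate 1 or 2 the counts were 0 higher and 1 lower.

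Other epithelial genes, 14 in number, were all tested, and edgeR called none between the organoid groups, while DESeq2 called 1 higher and 1 lower. Krt18 had 5554 and 5153 CPM in Sox9-derived organoids, against 7010 and 6758 CPM, and Krt8 had 4008 and 3753 CPM, against 4405 and 4168 CPM. The TKO-tagged libraries had 8 of the 14 lower than Ck19-derived organoids and none higher, where 14% of all genes were called lower. Ap1m2, a subunit of the epithelial clathrin adaptor, and Rab25, a small GTPase of epithelial recycling, had no fragment. Krt8 and Krt18, which hepatocytes share with duct cells, were not called, at 2734 and 874 CPM and at 3353 and 1533 CPM. Of the 14, 4 passed the filter through the Ck19-derived libraries alone, and the lower count was 3 without Ck19-derived replicate 1 or 2.

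Of 21 mesenchymal and matrix genes, 10 were tested between the organoid groups and edgeR called none (DESeq2 called 3 higher and 1 lower, and edgeR with no count filter 1 and 1), with a median log2 fold change of 0.57. The hyaluronan receptor Cd44 had 437 and 505 CPM in Sox9-derived organoids, against 277 and 250.2 CPM (SE 0.18 around a log2 fold change of 0.84, edgeR adjusted p = 0.125; DESeq2 adjusted p = 0.00139; edgeR adjusted p = 0.0405 without Sox9-derived replicate 1), and the membrane-bound matrix protease Mmp14 had 161 and 121 CPM, against 146 and 131 CPM. In the TKO-tagged libraries 13 of 19 were higher and 2 lower than in Ck19-derived organoids, with a median log2 fold change of 5.68. Over all genes tested, 15% were called higher and 14% lower. Of these 19 genes, 11 passed the filter through the TKO-tagged libraries alone, so count and median are a description and were not read as support. The fibrillar collagen Col3a1 had 107 and 35.9 CPM, against 0.125 and 0.0916 CPM, and smooth muscle actin, Acta2, had 53.2 and 51.3 CPM, against 0.220 and 0.122 CPM. The matricellular protein Postn had 18.6 and 3.70 CPM, against 0 and 0.153. Tagln, which shares 67.9% of its exon bases with other genes, had 1.56 and 0.821 CPM, against none. Cd44 was lower, at 23.9 and 7.84 CPM, as was the epithelial integrin Itgb6, at 0.0188 and 0.0503 CPM, against 21.1 and 19.9 CPM. The counts were 5 higher and 1 lower without Ck19-derived replicate 1, and 3 and 1 without replicate 2.

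Integrins that bind fibronectin and collagen numbered 11. Between the organoid groups 8 were tested and edgeR called none, while DESeq2 called 1 higher; the shared beta chain Itgb1 had 393 and 339 CPM in Sox9-derived organoids, against 373 and 291 CPM, and the laminin receptor chain Itga3 had 144 and 87.5 CPM, against 184 and 123 CPM. In the TKO-tagged libraries 5 of 10 were higher and 2 lower than in Ck19-derived organoids, where 28.9% of all genes were called, but 3 were higher and 3 lower with library totals alone. Of the 10, 3 passed the filter through the TKO-tagged libraries alone. The fibronectin receptor chain Itga5 had 35.1 and 36.3 CPM, against 11.1 and 9.41 CPM (SE 0.29 around a log2 fold change of 2.55, edgeR adjusted p = 0.00588), and Itga8, Itga4 and Itgb3 lay between 1.02 and 4.39 CPM. Itga3 was at 14.5 and 3.22 CPM and the collagen receptor chain Itga2 at 2.52 and 0.737, against 33.2 and 20.4. None was called without Ck19-derived replicate 1 or 2.

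**Figure D5:**
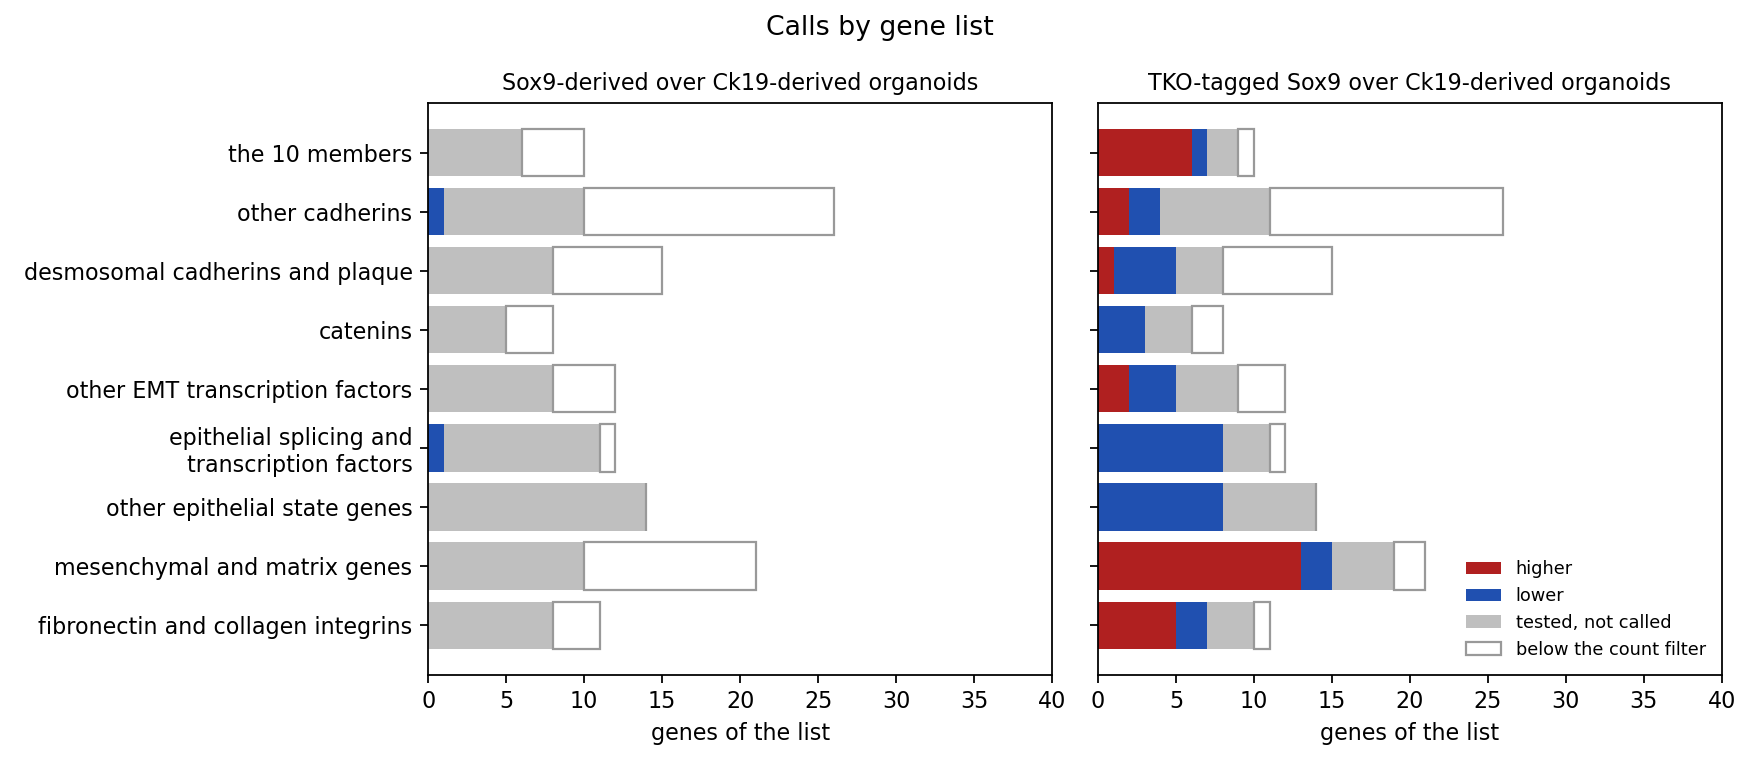
Number of genes of the set and of each supporting list called higher, called lower, tested and not called, or below the count filter, for Sox9-derived over Ck19-derived organoids (left) and TKO-tagged Sox9 libraries over Ck19-derived organoids (right); lists of cell type markers are not drawn. On the left 1 cadherin and 1 epithelial transcription factor are called lower. On the right 13 of 19 mesenchymal and matrix genes are called higher and 8 of 11 epithelial splicing and transcription factors lower. Over all genes tested on the right, 15% are called higher and 14% lower.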

How the data were processed

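Raw counts of fragments per gene were produced by the authors, per the file headers, with featureCounts 1.5.0-p3 against Ensembl 87 on GRCm38, from primary alignments of mapping quality 10 or more, with both ends mapped and without strand. Fragments over bases of 2 genes, antisense ones included, count as ambiguous in the deposited summaries (2.76 to 3.82% of fragments) and for neither gene. Per the submitters' processing notes, STAR 2.5.4b, edgeR and limma were used; the notes list builds with no role. The deposited counts are not normalized, and 0 duplicates were flagged in them. Of the libraries in the deposited tables, 4 carry names that fit no labelled sample and stayed out. The comparisons planned for the Epcam-negative, Epcam-high and Thy1-positive samples were not analysed here.

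CPM was computed on library totals, and CPM per kb with the deposited gene lengths. The main test was edgeR 4.0.16 in R 4.3.3 (glmQLFit, glmQLFTest, TMM, filterByExpr with a minimum count of 10). It was two-sided with 2 residual degrees of freedom, and used Benjamini-Hochberg over all genes tested and an adjusted p under 0.05. The test was also run on counts simulated from its own fitted dispersion, which cannot show how well it handles the spread of these libraries. edgeR estimated a common biological coefficient of variation of 0.434 between the organoid groups and of 0.502 with the TKO-tagged libraries. TMM factors were 0.750 and 0.788 for these, against 1.28 and 1.32 for the Ck19-derived libraries. Alternatives were relative log expression (RLE) size factors, library totals alone, DESeq2 1.42.0, limma 3.58.1 (voom), no count filter, each library left out, a replicate block and the TKO-tagged columns. A ratio of group totals has an exact (Clopper-Pearson) 95% interval; intervals and floors cover counting error only. Replicate pairs differed far beyond sampling noise (chi-square per gene of 118, 412 and 62.8 in the Sox9-derived, TKO-tagged and Ck19-derived pairs). Nothing says that replicates are separate cultures or animals, so the p-values reflect only how these libraries vary, possibly for technical reasons.

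The 10 genes and the lists were chosen with earlier results of these data known. Besides the 10, the genes named are the called genes of each list, up to 4 in each direction by size, and the 2 with the highest mean CPM in the 4 organoid libraries; any further gene was picked with its values in view.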

Additional observations from a re-analysis of the deposited data

How the results depend on the processing

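Between the organoid groups, 95 genes were called; RLE size factors gave 97, library totals alone 95 and limma-voom 93. DESeq2 gave 1512, no count filter 506, the replicate block 0 (2665 at an unadjusted p under 0.05) and the TKO-tagged columns in place of the Sox9-derived ones 5190; leaving out 1 library gave 0 to 1394 (1692 and 1611 genes at an unadjusted p under 0.05 without Ck19-derived replicate 1 and 2). Of the 10 genes, 0 were called; DESeq2 called 2, no count filter 1, the TKO-tagged columns 7, and leaving out 1 library 0 to 2. Against Ck19-derived organoids, the TKO-tagged libraries gave 5190 calls, 3319 with the replicate block and 881 to 6976 with 1 library left out; of the 10 genes 7 were called, 4 with the block and 2 to 7 with 1 library left out. The block cost Zeb1, Zeb2 and Snai1 their calls (edgeR adjusted p = 0.0568, 0.0622 and 0.0935), and Cdhr5 and Grhl3 theirs between the organoid groups (0.0983 and 0.103). Same-numbered libraries share only a number: their deviations correlated at 0.0552 (organoid groups) and 0.0516 (TKO-tagged and Ck19-derived). The cause of these changes was not tested.

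With the TKO-tagged columns as the Sox9 group, log2 fold changes turned round for Cdh1 (-1.42), Cdh2 (3.30), Zeb1 (4.62), Esrp1 (-13.92), Cdhr5 (2.65), Cdh13 (-3.37), Jup (-2.40), Ctnnb1 (-1.81), Ctnna1 (-1.54), Sox4 (-3.91), Tcf3 (-1.23), Ehf (-8.46), Cd44 (-3.28), Mmp14 (-0.50) and Itgb1 (-0.93). With 1 library left out, those of Zeb1 (-1.85 to 1.72), Esrp1 (-0.094 to 0.171), Mmp14 (-0.18 to 0.21) and Itgb1 (-0.058 to 0.340) changed sign, none of them called. Over all named genes and alternatives to the comparison of the organoid groups, the TKO-tagged columns included, 209 values kept direction and side of the threshold. A further 22 changed direction, 27 newly passed the threshold and 6 lost it. For the TKO-tagged libraries 370 values kept both, 5 newly passed the threshold, 83 lost it and none changed direction. For genes with few fragments, such as Snai1 and Twist1 in the organoids, depth sets the limit.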

Other observations

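Some mesenchymal genes, chosen after their values were seen, differed between replicates or between organoid groups in ways the calls do not show. Sparc, a secreted collagen-binding protein, had 167 and 0.0302 CPM in the Sox9-derived organoids, against 64.5 and 15.5 CPM in Ck19-derived ones, so the difference between the Sox9-derived replicates exceeded that between groups. Cnn1, a calponin of smooth muscle, had 34.6 and 8.02 CPM in the Sox9-derived organoids, against 0.0314 and 0.0916 CPM in Ck19-derived ones. The log2 fold change of Cnn1 was 8.34 with an SE of 1.12 and missed the threshold (edgeR adjusted p = 0.0698). The classical cadherin Cdh6 had 76.8 and 46.3 CPM in Sox9-derived organoids, against 24.0 and 13.3 CPM in Ck19-derived organoids, and 1.05 and 0 CPM in the TKO-tagged libraries.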
